A study of Mus musculus with 19 samples.

Results

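Potassium channel subunits were followed in mouse medulloblastomas that the labels call resistant to a Smoothened antagonist, and in vehicle tumours that they call sensitive. The members were all probe sets whose only gene symbol began with Kcn, which gave 167 of 45037 probe sets on the array, for 84 genes. The symbol takes in more than pore-forming channels. Auxiliary and regulatory proteins make up 12 of the genes, and 3 are non-coding or opposite-strand transcripts that encode no channel subunit.

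The study measured RNA in 19 tumours with 1 Affymetrix array each. The treated groups were 8 tumours given NVP-LDE225, which blocks the Hedgehog signal transducer Smoothened, at 40 mg/kg and 8 given 160 mg/kg, and the control was 3 tumours given vehicle. All groups shared the tumour genotype Ptch+/-p53-/-, with 1 copy of the Hedgehog receptor gene Ptch disrupted and no p53. The cells were taken straight from tumours and grown under the skin of the right flank of nude (Harlan nu/nu) mice, which lack T cells, so the grafts grew outside the brain and can hold host vessels, stroma and blood. Treatment began about 10 days after the graft, and no ages, times of collection or treatment lengths are given in the sources used here. Every treated tumour is labelled resistant and every vehicle tumour sensitive, so treatment and resistance cannot be told apart. In the source names, only tumours 6 and 7 at 160 mg/kg are called resistant, and the remaining treated ones are called treated. The labels do not state that each tumour came from its own animal, so the p-values speak only of the spread among these samples, which may be partly technical.

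Potassium channels let potassium leave or enter cells down its gradient and so set the resting potential and end the action potential. Voltage-gated channels (Kv) open on depolarization, calcium-activated ones link calcium entry to repolarization, inward rectifiers hold the resting potential, and two-pore-domain channels carry background leak. Cerebellar granule neurons, whose precursors give rise to Hedgehog-driven medulloblastoma, gain Kv and inward rectifier currents as they mature.

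The deposited values are MAS5 signals, in arbitrary intensity units on a linear scale, with a trimmed mean of 150.0 on every array. Array medians lay between 32.7 and 49.7. Any pair of arrays correlated at 0.908 to 0.963 over all 45037 probe sets, on the log2 scale. Vehicle tumour 3 and 160 mg/kg tumour 2 were least like the others, with mean correlations of 0.927 and 0.930. The number of arrays, 3 of them vehicle, limits the precision. Changes are given on the log2 scale of the signal plus 2.5, which understates the change of dim probe sets. Of the granule precursor markers, 12 of 12 passed the filter on low signal, which asks for only 3 of the 19 arrays. Of these, 2 rose in resistant tumours, the transcription factors Zic1 (0.51, adjusted p = 0.0179 by limma) and Neurod1 (1.22, adjusted p = 0.0125). None fell and 10 were not called, with a list median of -0.14 against -0.06 over all genes, of which 2.86% rose. Atoh1, which defines granule precursors, had -0.87 (adjusted p = 0.507), and the Hedgehog target Gli1 had -0.35 (adjusted p = 0.821). The lowest signals over all tumours were 22.5 for Atoh1 and 32.7 for Barhl1, against vehicle means of 1313 and 614. The mean log2 signal of the list was lowest in 160 mg/kg tumour 2, at 8.33, against 9.17 to 9.28 in vehicle tumours.

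The filter, a signal above the 40th percentile of its array on at least 3 arrays, kept 81 Kcn probe sets for 47 genes. The other 37 genes had mean signals of 15.4 or less over all arrays at their brightest probe set and were not tested. Kcnj5 and Kcnj9, which encode partners of the Kcnj3 protein, were among them and are named after their values were seen. A gene with several kept probe sets is represented below by the one with the highest mean over all arrays.

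In resistant tumours, taken as the mean of both doses against vehicle, potassium channel RNA moved in both directions with a small set of genes rising. The rising genes were the G protein-gated inward rectifier Kcnj3, the fast Kv channels Kcnc1 and Kcnd3 and the leak channels Kcnk1 and Kcnk10. The single gene that fell was Kcnj11, the pore of the ATP-sensitive potassium channel. By limma, with an adjusted p under 0.05 as the threshold, 10 of 81 Kcn probe sets (12.3%) were called for 6 genes, against 4.47% of all 31143 kept probe sets. An unadjusted p under 0.05 was reached by 27 (33.3%), against 21.5% of all. At the representative probe sets, 5 of 47 genes rose (10.6%, against 2.86% of all genes) and 1 fell (2.13%, against 2.46%), that is 6 (12.8%) against 5.32% in all. Of the 10 called probe sets, 9 were higher (11.1% of the 81, against 2.64% of all) and 1 was lower (1.23%, against 1.83% of all). For 5 of the 10, no vehicle tumour was above the level of the filter, so these probe sets were kept through the treated tumours alone, and the count of rises is given as a description. The same held for 124 of the 1392 called probe sets in all. The median change over the Kcn probe sets was 0.02, against -0.06 over all probe sets, with 44 Kcn probe sets higher and 37 lower.

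The counts moved when a vehicle tumour was left out. Without vehicle tumour 1, 2 or 3, the called Kcn probe sets numbered 5 (6.17%), 4 (4.94%) and 6 (7.41%), against 1.36%, 1.52% and 0.78% of all probe sets in the same fits. In those 3 fits Kcnj3 and Kcnj11 were called each time, Kcnk10 in 1, and Kcnc1, Kcnd3 and Kcnk1 in 0. Without vehicle tumour 3 and 160 mg/kg tumour 2 together, 6 Kcn probe sets were called (7.41%, against 0.88% of all), an alternative added after the data were seen.

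Counted over single tumours, 6 of 81 Kcn probe sets (7.41%) were higher in all 16 treated tumours than in any vehicle tumour, against 1.83% of all probe sets. They belonged to Kcnj3, with several probe sets, and to Kcnc1, Kcnd3 and Kcnk1. The reverse held for 1 (1.23%), that of Kcnj11, against 2.01% of all. Among the higher probe sets, that of Kcnc1 and those of Kcnj3 beside its representative were kept through the treated tumours alone. The count of higher probe sets is therefore given only as a description.

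**Figure D1:**
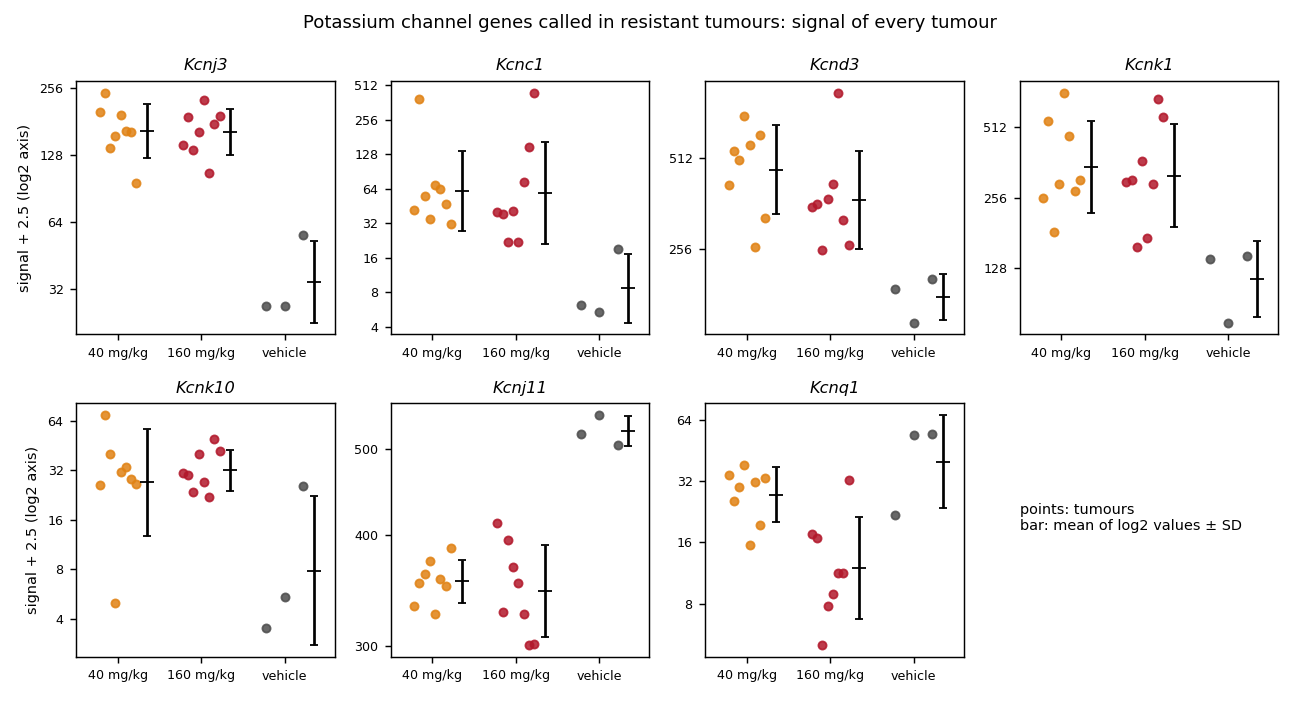
Signal plus 2.5 on a log2 axis, in arbitrary intensity units, for the 7 genes called in any comparison, with 1 point per tumour at 40 mg/kg, 160 mg/kg and vehicle. Bars give the mean and SD of the log2 values. All 16 treated tumours lie above the 3 vehicle tumours for Kcnj3, Kcnc1, Kcnd3 and Kcnk1 and below them for Kcnj11.

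Kcnj3 encodes a subunit of the channel that Gi/o-coupled receptors open to quiet neurons. Its signal had a lowest, median and highest value of 93.6, 161 and 242.2 in the 40 mg/kg tumours and of 103.9, 167 and 224.8 in the 160 mg/kg tumours, against 24.3, 24.3 and 53.4 in vehicle tumours 1, 2 and 3. The groups did not overlap, and vehicle tumour 3 was the highest of its group. The means were 167 ± 44.5 at 40 mg/kg and 164 ± 38.3 at 160 mg/kg (n = 8 each, SD), against 34.0 ± 16.8 in vehicle tumours (SD, n = 3). The rise was 2.25 on the log2 scale (SE 0.24), or 4.77-fold (limma adjusted p = 0.000287). It was the smallest adjusted p among the Kcn genes, and all 4 of its kept probe sets were called higher, with changes from 0.87 to 2.25. As the mean of these probe sets the change was 1.59 (adjusted p = 0.000674). The representative probe set was above the level of the filter in all 3 vehicle tumours. In vehicle tumours 1, 2 and 3, 1 other had signals of 20.2, 6.3 and 31.1, and 1 had 16.2, 13.5 and 21.0. These dimmer probe sets were kept through the treated tumours alone.

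Kcnj11, whose channel closes when ATP is high, fell. Its signal had a lowest, median and highest value of 323.0, 352 and 384.1 at 40 mg/kg and of 297.8, 338 and 410.0 at 160 mg/kg, against 517.1, 543.4 and 503.0 in vehicle tumours 1, 2 and 3. No treated tumour reached the vehicle range. The mean was 352 ± 20.1 at 40 mg/kg and 345 ± 41.7 at 160 mg/kg (n = 8 each, SD), against 521 ± 20.5 in vehicle tumours (SD, n = 3). It fell by 0.58 on the log2 scale (SE 0.10), that is 1.50-fold lower (limma adjusted p = 0.00195). With array medians subtracted the adjusted p was 0.0451 for both doses together, and at 40 and 160 mg/kg alone it missed the threshold, at 0.0789 and 0.0681. Its sulfonylurea receptor partner Abcc8 had a change of 0.20 (adjusted p = 0.726).

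The other inward rectifiers did not pass. Of the 8 kept genes in the class, 1 rose, 1 fell and 6 were not called. Kcnj6, which joins Kcnj3 in heteromeric channels, had means of 76.1 ± 31.3 at 40 mg/kg and 74.4 ± 31.7 at 160 mg/kg (n = 8 each, SD), against 40.2 ± 17.6 in vehicle tumours (SD, n = 3), a change of 0.87 (SE 0.34, limma adjusted p = 0.136). Of the treated tumours 14 of 16 exceeded every vehicle tumour, but its 3 kept probe sets ran from -0.39 to 1.01. Kcnj10, the glial channel that clears potassium, had a change of 0.76 (adjusted p = 0.329), with 12 of 16 treated tumours above all vehicle tumours.

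Promoter sequence is shown for the 4 rising pore-forming genes Kcnj3, Kcnd3, Kcnc1 and Kcnk1, in which the treated tumours did not overlap the vehicle tumours, so that their upstream bases can be read beside that shared rise. Each is the 250 bases before the gene start from RefSeq, build GRCm38.p6, plus strand, read 5′ to 3′. Kcnj3 lies upstream at chr2:55435720-55435969, Kcnd3 at chr3:105451640-105451889, Kcnc1 at chr7:46396218-46396467 and Kcnk1 at chr8:125994852-125995101.
Kcnj3: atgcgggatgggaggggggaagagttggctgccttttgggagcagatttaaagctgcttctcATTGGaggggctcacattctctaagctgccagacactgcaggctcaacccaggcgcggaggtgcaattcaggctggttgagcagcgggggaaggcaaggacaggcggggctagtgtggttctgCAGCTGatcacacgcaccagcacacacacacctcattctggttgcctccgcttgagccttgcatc
Kcnd3: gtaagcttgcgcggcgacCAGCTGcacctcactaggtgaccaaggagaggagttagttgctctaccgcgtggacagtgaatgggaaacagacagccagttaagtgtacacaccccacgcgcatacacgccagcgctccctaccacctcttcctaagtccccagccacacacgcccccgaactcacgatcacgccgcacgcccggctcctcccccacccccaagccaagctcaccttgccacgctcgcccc
Kcnc1: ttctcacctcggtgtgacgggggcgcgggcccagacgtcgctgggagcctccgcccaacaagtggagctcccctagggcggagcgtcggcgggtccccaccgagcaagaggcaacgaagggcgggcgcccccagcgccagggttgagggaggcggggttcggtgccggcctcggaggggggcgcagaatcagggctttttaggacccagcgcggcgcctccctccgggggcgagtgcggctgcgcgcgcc
Kcnk1: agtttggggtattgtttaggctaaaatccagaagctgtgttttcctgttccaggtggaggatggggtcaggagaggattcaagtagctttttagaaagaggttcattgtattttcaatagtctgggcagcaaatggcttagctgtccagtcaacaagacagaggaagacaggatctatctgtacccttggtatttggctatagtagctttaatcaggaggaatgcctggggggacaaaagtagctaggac
Capitals mark matches to the motifs searched on both strands. These were GACCACCCA (the GLI core), the E-boxes CAGCTG and CAGATG, TGACGTCA (the cAMP response element) and CCAAT. No matches overlapped. CAGCTG was found in Kcnj3 and Kcnd3 and is in 13% of 32851 promoters. CCAAT was found in Kcnj3, on the minus strand, and is in 33.8%. GACCACCCA, in 0.225% of promoters, CAGATG, in 14.4%, and TGACGTCA, in 1.55%, had no match in these 4. Kcnc1 and Kcnk1 held none of the motifs. The guanine and cytosine share was 58.4% for Kcnj3, 62.8% for Kcnd3, 74.4% for Kcnc1 and 44.4% for Kcnk1. A match is only a run of letters in this window.

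Kv channels of the Kv1 to Kv4 families divided. Of 8 kept genes, 2 rose, 0 fell and 6 were not called, with a class median of 0.46. Kcnd3, the transient A-type channel, rose. Its signal had a lowest, median and highest value of 257.1, 520 and 705.2 at 40 mg/kg and of 251.8, 355 and 840.9 at 160 mg/kg, against 186.8, 143.7 and 202.4 in vehicle tumours 1, 2 and 3. All 16 treated tumours were above them. The change was 1.23 (SE 0.28), or 2.34-fold (limma adjusted p = 0.0167). At 160 mg/kg alone it was 1.06 (adjusted p = 0.0506), just outside the threshold. Of its 3 kept probe sets 1 was called. As the mean of the 3 the change was 0.96, which missed the threshold (adjusted p = 0.0638).

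Kcnc1, a fast-deactivating channel that lets neurons fire at high rates, rose on 2 of its 4 kept probe sets. Its signal had a lowest, median and highest value of 29.0, 48.1 and 387.4 at 40 mg/kg and of 19.4, 37.7 and 437.3 at 160 mg/kg, against 3.7, 2.9 and 16.6 in vehicle tumours 1, 2 and 3. The treated tumours were all above, and 40 mg/kg tumour 2 and 160 mg/kg tumour 8 were far the highest. No vehicle tumour was above the level of the filter, so the probe set was kept through the treated tumours alone, and the vehicle mean of 7.73 was too near 2.5 for a fold. The size of the change therefore depends on the pseudocount. The change was 2.80 (SE 0.73, limma adjusted p = 0.0330). Its other called probe set rose by 2.20 (adjusted p = 0.0125), and the 2 that were not called had 0.96 and 0.05. The change was 1.50 as the mean of the 4 (adjusted p = 0.0399) and 1.74 with a pseudocount of 16 (adjusted p = 0.101). With no filter it was still called (adjusted p = 0.0421). It was 3.42 without the 2 arrays least like the others (adjusted p = 0.0721).

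Kcnd2, the A-type channel of granule neurons, and Kcna1, a low-threshold channel of axons, spread most widely among treated tumours. Kcnd2 had a lowest, median and highest signal of 1.2, 48.0 and 1179.0 at 40 mg/kg and of 0.9, 57.4 and 839.9 at 160 mg/kg, against 2.9, 0.8 and 4.5 in vehicle tumours 1, 2 and 3. It exceeded every vehicle tumour in 13 of 16 treated tumours, and its change of 3.30 (SE 1.43) was not called (limma adjusted p = 0.185). No vehicle tumour was above the level of the filter, so Kcnd2 was kept through the treated tumours alone. The size of its change depends on the pseudocount, and over the alternatives it ran from 2.11 to 4.45. Kcna1 had a lowest, median and highest signal of 0.7, 43.4 and 976.1 at 40 mg/kg and of 8.4, 32.7 and 829.2 at 160 mg/kg, against 30.5, 16.9 and 14.2 in vehicle tumours 1, 2 and 3. Here 10 treated tumours were above all vehicle tumours and 4 below, and the change of 1.28 was not called (adjusted p = 0.563). Both genes were highest in 40 mg/kg tumour 2 and 160 mg/kg tumour 8, as Kcnc1 was. Kcna2 had a change of -0.37 (adjusted p = 0.619) and Kcna7 of -1.17 (adjusted p = 0.262).

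**Figure D2:**
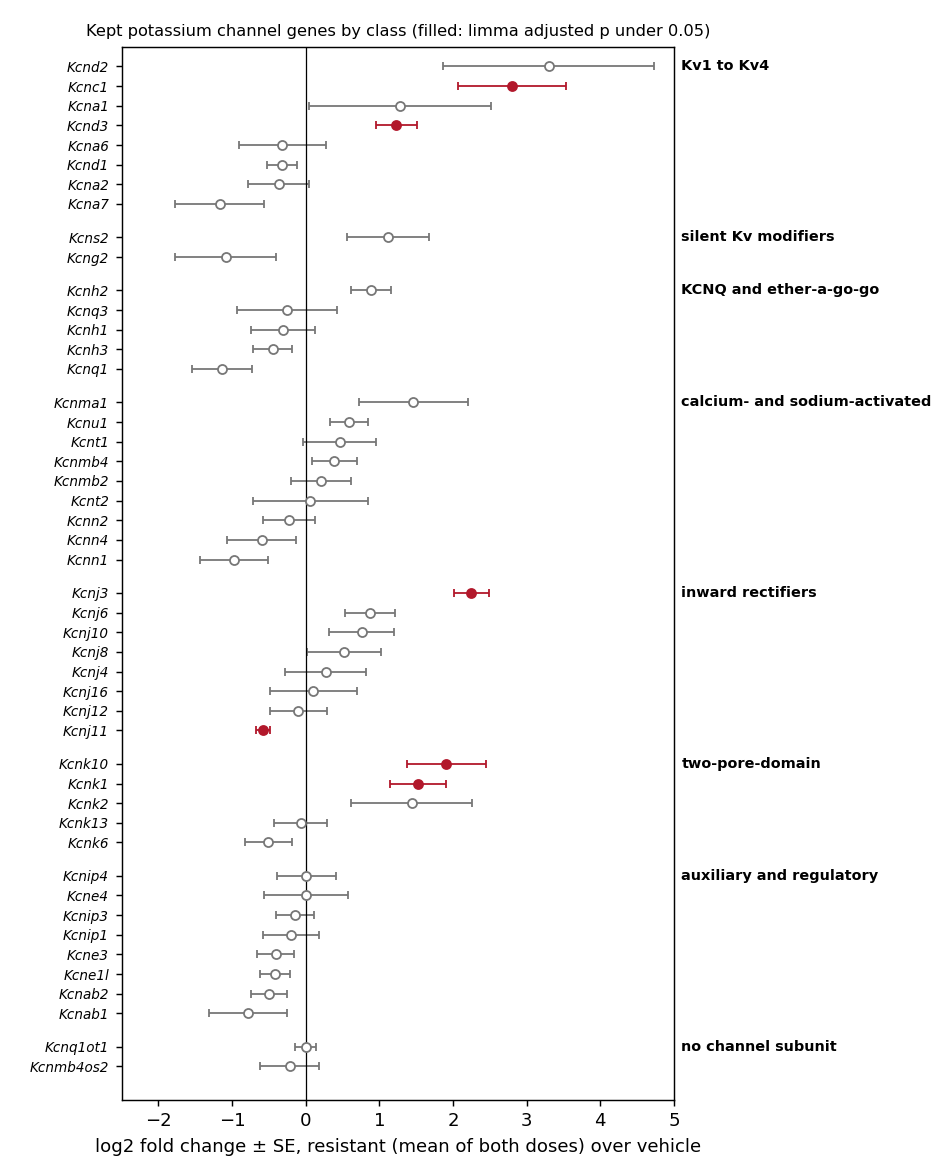
The log2 fold change with its SE, resistant tumours (mean of both doses) over vehicle tumours, for the 47 kept genes grouped by class. Filled points passed an adjusted p under 0.05, 5 higher and 1 lower, and Kcnd2 (3.30) has the widest error. Kcnd2 was kept through the treated tumours alone.

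Two-pore-domain channels had the highest class median, 1.44, but over few genes. This median is the value of Kcnk2, which was not called. With signals of 13.2, 4.6 and 21.0 in vehicle tumours 1, 2 and 3, Kcnk2 was kept through the treated tumours alone. Of 5 kept genes, 2 rose and 3 were not called. Kcnk1 had a lowest, median and highest signal of 180.0, 297 and 719.4 at 40 mg/kg and of 155.2, 301 and 671.9 at 160 mg/kg, against 137.9, 72.1 and 141.6 in vehicle tumours 1, 2 and 3. The groups did not overlap. It rose by 1.53 on the log2 scale (SE 0.38), or 2.89-fold (limma adjusted p = 0.0270). Its other kept probe set had 1.27 and was not called (adjusted p = 0.0958). As the mean of both the change was 1.40, which missed the threshold (adjusted p = 0.0522). Kcnk10, a stretch- and lipid-sensitive leak channel, had a lowest, median and highest signal of 2.5, 27.2 and 67.1 at 40 mg/kg and of 19.6, 27.9 and 47.3 at 160 mg/kg, against 1.0, 2.9 and 23.2 in vehicle tumours 1, 2 and 3. The groups overlapped. Vehicle tumour 3 reached the treated range, 40 mg/kg tumour 4 lay under vehicle tumour 2, and 13 of 16 treated tumours exceeded every vehicle tumour. No vehicle tumour was above the level of the filter, so the probe set was kept through the treated tumours alone. Its change was 1.91 (SE 0.54, adjusted p = 0.0497). It was 1.32 without vehicle tumour 1 (adjusted p = 0.284), 2.76 without vehicle tumour 3 (adjusted p = 0.0254) and 0.93 with a pseudocount of 16 (adjusted p = 0.0713). With no filter the call was lost (adjusted p = 0.0637). The related Kcnk2 had a change of 1.44 that was not called (adjusted p = 0.312). Kcnk6 had -0.51 (adjusted p = 0.365) and Kcnk13 -0.07 (adjusted p = 0.935).

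KCNQ and ether-a-go-go channels held 5 kept genes and 0 called for the mean of both doses by limma. At an unadjusted p under 0.05, 2 passed, where 21.5% of all kept probe sets did. Kcnq1, the slow delayed rectifier of heart and epithelia, fell at 160 mg/kg. Its signal had a lowest, median and highest value of 13.1, 28.4 and 36.0 at 40 mg/kg and of 2.5, 8.80 and 29.7 at 160 mg/kg, against 19.2, 51.2 and 51.7 in vehicle tumours 1, 2 and 3. The 160 mg/kg tumours overlapped vehicle tumour 1 in 1 case. The change at 160 mg/kg was -1.73 (SE 0.45, adjusted p = 0.0327), and at 40 mg/kg it was -0.54 (adjusted p = 0.526). The direct difference of 160 against 40 mg/kg was -1.19 (unadjusted p = 0.00163, adjusted p = 0.640). Of 3 fits that each left out 1 vehicle tumour, 1 called the fall at 160 mg/kg. With a pseudocount of 16 it was -1.04 (adjusted p = 0.0237). Kcnh2, the rapid delayed rectifier, had a change of 0.89 (adjusted p = 0.0624), with 10 of 16 treated tumours above all vehicle tumours. Kcnh3 had -0.45 (adjusted p = 0.329) and Kcnq3 -0.25 (adjusted p = 0.866).

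Calcium- and sodium-activated channels, counted with their beta subunits, had 9 kept genes and 0 called by limma. An unadjusted p under 0.05 was reached by 2, against 21.5% of all kept probe sets. The class median was 0.21. The large-conductance channel Kcnma1 had a change of 1.46 (adjusted p = 0.258), with 12 of 16 treated tumours above all vehicle tumours. Its vehicle signals, 3.3 to 9.8, were under the level of the filter, so it was kept through the treated tumours alone. Kcnu1, known from sperm in mice, had 0.59 (adjusted p = 0.193), and the beta subunit Kcnmb4 had 0.39 (adjusted p = 0.458). The small- and intermediate-conductance channels had negative values, with Kcnn1 at -0.97 (adjusted p = 0.232), Kcnn2 at -0.23 (adjusted p = 0.741) and Kcnn4 at -0.60 (adjusted p = 0.474).

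Auxiliary and regulatory genes tune the gating and trafficking of the channels. By limma 0 of their 8 kept genes were called, and 1 passed an unadjusted p under 0.05, against 21.5% of all kept probe sets. A change below 0 was found for 7 of these 8 genes, that of Kcne4 only before rounding. The class median was -0.31, against 0.00 over the 47 Kcn genes. Kcnab2, a Kv beta subunit, had a signal of 41.7 ± 8.67 at 40 mg/kg and 37.4 ± 11.6 at 160 mg/kg (n = 8 each, SD), against 55.0 ± 4.34 in vehicle tumours (SD, n = 3). In 15 of 16 treated tumours it lay under every vehicle tumour (-0.50, adjusted p = 0.245). Kcnab1 had -0.78 (adjusted p = 0.398), Kcne1l -0.42 (adjusted p = 0.220), Kcne3 -0.41 (adjusted p = 0.340) and Kcnip3 -0.15 (adjusted p = 0.767). The silent Kv modifiers, which alter other Kv channels but form none alone, had 2 kept genes, Kcns2 at 1.12 (adjusted p = 0.250) and Kcng2 at -1.09 (adjusted p = 0.364). By limma neither was called, and 0 passed an unadjusted p under 0.05.

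Kcnq1ot1, the imprinted non-coding transcript within Kcnq1, had a change of 0.00 (adjusted p = 0.991), and another of its 6 kept probe sets had -0.70 (adjusted p = 0.0883). Kcnmb4os2, transcribed opposite Kcnmb4, had -0.22 (adjusted p = 0.779). Neither encodes a channel subunit.

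**Figure D3:**
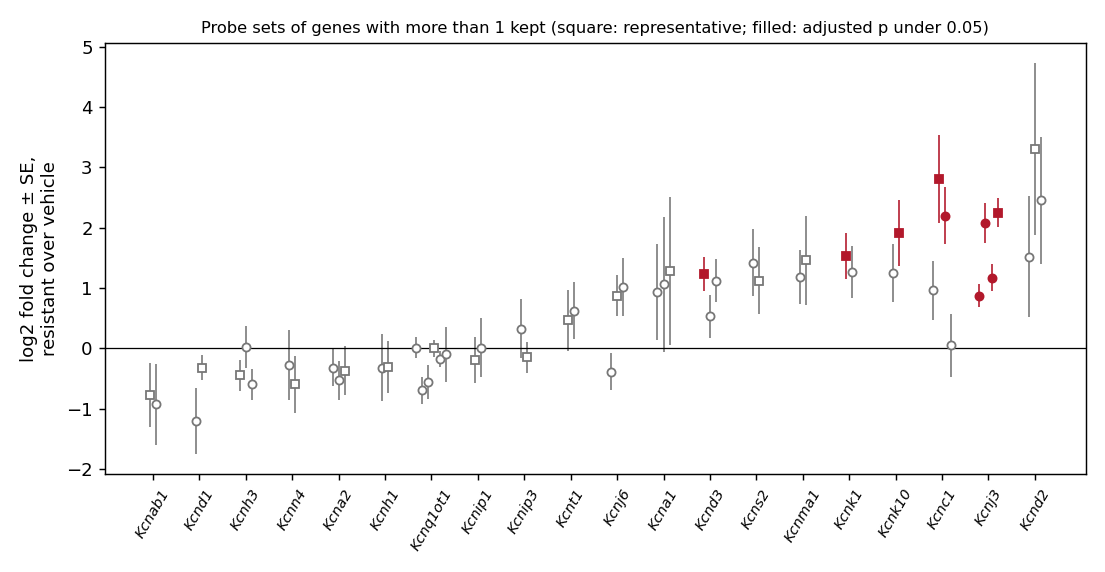
The log2 fold change with its SE, resistant tumours (mean of both doses) over vehicle tumours, for every kept probe set of the 20 genes with more than 1. Squares mark the representative probe set and filled marks passed an adjusted p under 0.05. All 4 for Kcnj3 are filled, 2 of 4 for Kcnc1, and 5 genes have probe sets of both signs.

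By dose, 8 of 81 Kcn probe sets (9.88%) were called at 40 mg/kg against vehicle by limma, for 5 genes, against 2.14% of all probe sets. Of these 7 were higher (8.64%, against 1.52% of all) and 1 was lower (1.23%, against 0.629% of all). At 160 mg/kg, 9 were called (11.1%) for 5 genes, against 4.05% of all, with 7 higher (8.64%, against 2.27%) and 2 lower (2.47%, against 1.77%). An unadjusted p under 0.05 was reached by 23 at 40 mg/kg (28.4%, against 19.3% of all) and by 25 at 160 mg/kg (30.9%, against 20.4%). Both comparisons use the same 3 vehicle tumours. Without vehicle tumour 1, 2 or 3 the Kcn counts at 40 mg/kg were 3 (3.7%), 2 (2.47%) and 5 (6.17%), against 0.623%, 0.623% and 0.385% of all. At 160 mg/kg they were 5 (6.17%), 4 (4.94%) and 6 (7.41%), against 1.45%, 1.84% and 0.697% of all. Between the doses, 160 against 40 mg/kg, limma called 0 Kcn probe sets and 0 of 31143 in all (0%). At an unadjusted p under 0.05, 4 Kcn probe sets (4.94%) passed, against 6.81% of all, and they belonged to Kcnq1, Kcnd3 and Kcnh1. The Kcn count stayed at 0 under each alternative that was run.

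Genes that work beside these channels were read from a list of partners. Of 21 kept partners, 2 rose and 0 fell, with a median of 0.34 against -0.06 over all genes, of which 2.86% rose. Cntn2, a neuronal adhesion molecule that helps to cluster Kv1 channels on axons, rose by 3.34 on the log2 scale (adjusted p = 0.000309), and it is also among the neuronal markers described below. Ank2, a membrane-skeleton adaptor, rose by 0.74 (adjusted p = 0.0465). Of 12 kept potassium pump and cotransporter genes, 0 were called by limma and 4 passed an unadjusted p under 0.05, with a median of 0.27. Of all kept probe sets, 21.5% passed that unadjusted p. The sodium pump subunit Atp1b1 had signals of 235 ± 366 at 40 mg/kg and 254 ± 380 at 160 mg/kg (n = 8 each, SD), against 11.4 ± 9.07 in vehicle tumours (SD, n = 3), a change of 3.36 (adjusted p = 0.0761).

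Markers of maturing neurons also differed between resistant and vehicle tumours. Of 14 kept markers, 8 rose and 0 fell, with a median of 1.12. Of all genes, 2.86% rose and 2.46% fell by limma, with a median of -0.06, and the marker counts below are set against the same shares. Their summed signal ran from 6971 to 15764 at 40 mg/kg and from 8107 to 16160 at 160 mg/kg, against 4560 to 5599 in vehicle tumours, without overlap. Nefm was the dimmest in means, at 10.3, 32.4 and 6.30 for 40 mg/kg, 160 mg/kg and vehicle. In bulk tissue, more cells of a type and more RNA per cell cannot be told apart. The part of these markers in the channel changes was not tested. Skeletal muscle markers, which host tissue could add, had 0 of 12 called by limma. An unadjusted p under 0.05 was reached by 1, against 21.5% of all kept probe sets. The muscle sums were 291 to 23083 at 40 mg/kg and 317 to 10997 at 160 mg/kg, against 1577 to 4822 in vehicle tumours. Oligodendrocyte lineage sums, beside Kcnj10, were 2110 to 12261 at 40 mg/kg and 1727 to 10343 at 160 mg/kg, against 2056 to 2374 in vehicle tumours, with 1 of 9 higher. Astrocyte and radial glia sums were 2536 to 5677 at 40 mg/kg and 1409 to 4490 at 160 mg/kg, against 3844 to 4370 in vehicle tumours. Of its 7 markers, Fabp7 rose (3.59, adjusted p = 0.0135) and Gja1 fell (-1.40, adjusted p = 0.0283). Of 6 smooth muscle and pericyte markers 1 rose, Cspg4 (2.85, adjusted p = 0.0420). Its vehicle mean of 4.17 ± 1.20 (SD, n = 3) was under the level of the filter, which was 19.7 to 33.3 over the arrays. Cspg4 was therefore kept through the treated tumours alone, and the size of its change depends on the pseudocount. Of 7 endothelial markers 1 fell, Flt1 (-0.71, adjusted p = 0.0217). Skin epithelium sums of 3 kept markers were 2251 to 5306 at 40 mg/kg and 200 to 3368 at 160 mg/kg, against 5144 to 5804 in vehicle tumours. None of the 3 was called, and their mean log2 signals overlapped, at 5.30 to 7.62 for 160 mg/kg and 6.84 to 7.62 for vehicle. Macrophage and microglia sums were 529 to 1931 at 40 mg/kg and 457 to 3941 at 160 mg/kg, against 807 to 1215 in vehicle tumours, with 0 of 9 called. The part of these cells in the channel changes was not tested.

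Within each dose, 9 channel genes were set against the mean log2 signal of the 14 neuronal markers over the 8 tumours, 18 relations in all. The genes were the 7 called in any comparison, with Kcnd2 and Kcna1, which were not called, added by hand and not by a rule. The measures share an array, and p-values are two-sided from exact permutations. Kcnc1 followed the markers at 40 mg/kg, with Pearson r = 0.92 (exact permutation p = 0.000446, adjusted 0.00804) and Spearman rho = 0.88 (p = 0.00724, adjusted 0.0964), and r = 0.87 without the 2 tumours farthest from the median. At 160 mg/kg Kcnc1 had r = 0.87 (exact permutation p = 0.00449, adjusted 0.0269) and rho = 0.71 (p = 0.0576, adjusted 0.139), and r fell to 0.49 without 2 tumours, so the relation rests on them. Kcna1 at 160 mg/kg had r = 0.93 (exact permutation p = 0.00176, adjusted 0.0158) and rho = 0.69 (p = 0.0694, adjusted 0.139), and r = 0.73 without 2. By Pearson, the other 15 relations did not pass after adjustment. By Spearman, the lowest adjusted p of all 18 relations was 0.0964, so the relations that passed did so by Pearson only. Kcnd3 had r = 0.14 at 40 mg/kg (exact permutation p = 0.748, adjusted 0.748) with rho = -0.17 (p = 0.703, adjusted 0.745) and r = 0.45 without 2. At 160 mg/kg Kcnd3 had r = -0.36 (exact permutation p = 0.406, adjusted 0.457) with rho = -0.50 (p = 0.216, adjusted 0.243) and r = 0.00 without 2. Kcnj3 had r = 0.81 at 40 mg/kg (exact permutation p = 0.0184, adjusted 0.0551) with rho = 0.86 (p = 0.0107, adjusted 0.0964) and r = 0.85 without 2. At 160 mg/kg it had r = 0.15 (exact permutation p = 0.728, adjusted 0.748) with rho = 0.14 (p = 0.752, adjusted 0.752) and r = -0.27 without 2.

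**Figure D4:**
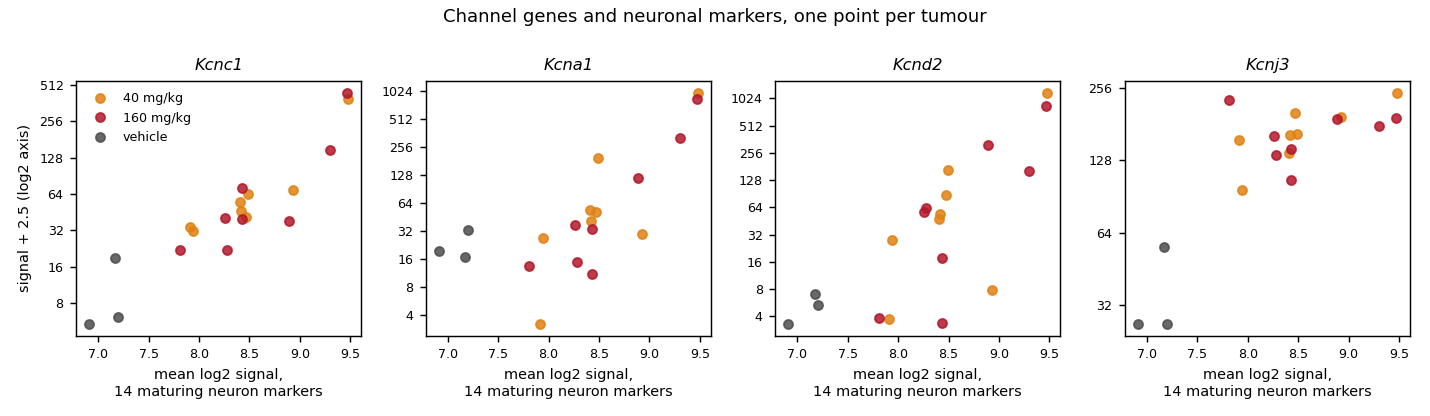
Signal plus 2.5 on a log2 axis, in arbitrary intensity units, against the mean log2 signal of 14 maturing neuron markers, with 1 point per tumour coloured by group, for Kcnc1, Kcna1, Kcnd2 and Kcnj3. The highest points of Kcnc1, Kcna1 and Kcnd2 are 40 mg/kg tumour 2 and 160 mg/kg tumour 8, and Kcnj3 shows no such rise among the 160 mg/kg tumours (r = 0.15).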

How the data were processed

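RNA of 19 tumours was measured on Affymetrix arrays. The deposited values are linear signal intensities made with MAS5, per the submitters' processing notes, whose version and scaling target are not given in the sources used here. MAS5 scales each array separately, and no detection calls, scan dates or batches were used here. The series text names the 430A 2.0 array, while the probe table used is that of the full 430 2.0 platform. After 64 control probe sets were left out, 34945 probe sets had 1 symbol, 932 had several and 9160 had none. All 84 Kcn genes matched the RefSeq GRCm38.p6 gene table by Entrez ID.

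Values were tested as log2 of signal plus 2.5 with limma 3.58.1 in R 4.3.3 (lmFit, then eBayes with trend), where the 3 groups shared 1 fit and 16 residual degrees of freedom. P-values are two-sided and Benjamini-Hochberg adjusted over all 31143 probe sets kept. Figures were drawn with matplotlib 3.10.9.

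The members and gene lists were chosen with earlier results of these data known. The text names 34 genes by rule: every called gene, in each class the 3 brightest and the 3 with the smallest p, and the 10 largest changes each way. Same-numbered tumours of different groups deviated from their group means with correlations of -0.08 to 0.05 over 14 pairs, so numbers were not taken to pair tumours.

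Alternatives were quantile normalization, subtracted array medians, pseudocounts of 1 and 16, no filter and one at the 60th percentile, no variance trend, array weights, a replicate block, only the groups compared, the mean of a gene's probe sets, and leaving out each tumour.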

Additional observations from a re-analysis of the deposited data

Results flagged for a closer look

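Among 68 groups of 8 tumours tested over the 34 named genes, 4 held a tumour far from the rest of its group. Chance flags about 1 in 20 groups. Kcnc1 had a signal of 387.4 in 40 mg/kg tumour 2, where the other 40 mg/kg tumours ran from 29.0 to 66.8. Kcnd3 had 840.9 in 160 mg/kg tumour 6, where the others at that dose ran from 251.8 to 419.2. Kcnk10 had 2.5 in 40 mg/kg tumour 4, against 23.5 to 67.1 in the others. Kcnab2 had 14.9 in 160 mg/kg tumour 4, against 29.4 to 51.3 in the others.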

How the results depend on the processing

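The 3 vehicle tumours limit every comparison with vehicle. For both doses averaged against vehicle, Kcnj3 and Kcnj11 were called in 19 of 19 fits that left out 1 tumour and under all 11 other settings. Kcnc1, Kcnd3 and Kcnk1 were called in 16 of 19 and 8 of 11, and Kcnk10 in 3 of 19 and 6 of 10. Leaving out 1 tumour gave 4 to 12 Kcn probe sets called for the mean of both doses (10 with all), 2 to 9 for 40 mg/kg (8), 4 to 12 for 160 mg/kg (9) and 0 to 0 between doses. Array weights gave 30 for the mean of both doses, 26 for 40 mg/kg and 22 for 160 mg/kg, where 28.6% of all probe sets were called for the mean of both doses. The replicate block, although the numbers did not pair the tumours, gave 4, 3 and 4 in the same order. A fit of only the groups compared gave 4 at 160 mg/kg. Counts without a share of all probe sets beside them describe the setting and are not read as results about Kcn genes. Without vehicle tumour 3 and 160 mg/kg tumour 2, chosen after seeing the data, the count was 6 for the mean of both doses (7.41%, against 0.88% of all). For 40 mg/kg it was 5 (6.17%, against 0.543% of all). No other setting moved a count by over 1.5 times. Signs turned for changes that were not called. Kcnc1 between doses (-0.06) became 0.00 with quantile normalization, 0.03 without the 2 arrays and -0.48 to 0.32 in fits without 1 tumour. Kcnip3 (-0.15) became 0.08 as the mean of its probe sets. Kcnk13 (-0.07) became 0.25 with array weights, 0.25 without the 2 arrays, 0.23 without vehicle tumour 3 and 0.03 without 40 mg/kg tumour 3, in a range of -0.23 to 0.23 over fits without 1 tumour. Kcnq1 at 40 mg/kg (-0.54) became 0.04 with array weights. Kcnq3 (-0.25) became 0.33 with array weights, 0.21 with the replicate block and 0.08 without vehicle tumour 2, in a range of -0.51 to 0.08 over such fits. Kcnq1ot1 (0.00) became 0.01 with quantile normalization, 0.06 with array medians subtracted and -0.16 to 0.07 in fits without 1 tumour. The cause of these shifts was not tested.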
